A study of Homo sapiens with 6 samples.

Results

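Cytosolic ribosomal proteins are the protein components of the ribosomes that translate nuclear-encoded mRNA. The mRNAs described here are the rows of the deposited count table whose symbol is RPL or RPS with a number and an optional A or X, or RPLP0, RPLP1, RPLP2 or RPSA, and whose mean over the 6 libraries reached 50 counts. Of 77 matching symbols, 76 met it, among 15379 symbols in the table: 45 for proteins of the large subunit and 31 for proteins of the small subunit. They were measured by poly(A) RNA sequencing in HaCaT cells, an immortalised human keratinocyte line, in 2 groups of 3 libraries. The heated cells were held at 41C for 1 h a day on 3 days, and the comparison cells were handled at 37C on the same schedule, with no other difference in line, genotype or agent in the labels. The study's title places the experiment in work on heat, the channel TRPV3 and the signals by which keratinocytes act on pigment cells.

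A ribosome consists of a large subunit, which forms peptide bonds, and a small subunit, which decodes the mRNA. Each holds ribosomal RNA and a fixed set of proteins, nearly all in 1 copy per ribosome, so cells make these proteins in matched amounts. Vertebrate ribosomal protein mRNAs are known to begin with a C followed by a run of pyrimidines, the 5′ terminal oligopyrimidine or TOP motif, through which the mTOR pathway and the RNA-binding protein LARP1 govern their translation and stability. Their genes are short and among the most strongly expressed in dividing cells.

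The start sites of mRNAs that the values below turn on are shown first, because the TOP motif is the sequence that ribosomal protein mRNAs are known to share. Each line gives 30 bases of the coding strand, 12 before and 18 from the annotated RefSeq start (GRCh38.p14), with the longest pyrimidine run of at least 6 bases at the start in capitals. RPL39 lies at chrX:119791613-119791642 on the minus strand, RPS12 at chr6:132814557-132814586 on the plus strand, RPS18 at chr6:33272063-33272092 on the plus strand, RPL7A at chr9:133348206-133348235 on the plus strand, RPLP0 at chr12:120201094-120201123 on the minus strand, RPL35 at chr9:124861940-124861969 on the minus strand, RPL28 at chr19:55385920-55385949 on the plus strand, RPS29 at chr14:49598693-49598722 on the minus strand and RPS4X at chrX:72277231-72277260 on the minus strand.
RPL39: ttccgccagCTTCCCTCCTCTTCCTTTCTC
RPS12: tgcggatgaggCCTCTTTCCCTgccgccgc
RPS18: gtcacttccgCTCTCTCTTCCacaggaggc
RPL7A: caaTTCCCTTTCCTTTCTCTCTCCTCCCgc
RPLP0: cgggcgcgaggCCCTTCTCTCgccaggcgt
RPL35: cccgcctaCTTCCTCTTTCCCTCggagcgg
RPL28: cccctcgCCTTCCTCTTTCCgtctcaggtc
RPS29: cgagcgcgcagctggcagcggtggttgttt
RPS4X: gtctccagccccaatttctacgcgcaccgg
RPS29 and RPS4X are shown because no such run was found in their windows.

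A run of at least 6 bases made only of C or T, read on the coding strand from 5 bases before to 15 bases from the start, was found for 54 of the 61 ribosomal protein genes in the RefSeq promoter table (88.5%). The same search found it for 24.0% of 9751 other tested genes and for 22.4% of all 27305 genes of the table. The opposite-strand form, a run of at least 6 bases made only of A or G, was found for 3 of the 61 genes (4.9%) and for 19.5% of the other tested genes. A gene with several annotated starts counted once if any start held the run. The 7 genes without it were RPL3, RPL6, RPL15, RPL17, RPL27, RPS4X and RPS29, which says only that these letters are not in this window at the annotated starts.

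Ribosomal protein mRNAs were abundant in every library. The 76 mRNAs took 7.53, 7.59 and 7.83% of the counts in 41C replicates 1, 2 and 3, against 7.88, 8.18 and 8.53% in 37C replicates 1, 2 and 3. The shares of the 2 groups did not overlap, and 37C replicate 3 stood highest. Each share rests on 1549610 to 1684644 counts, so its 95% Wilson interval spans at most 0.0246 percentage points, which covers counting error only. Total counts were 19659112 to 20856144 per library and were slightly higher in the 3 libraries at 41C. These are relative measures in a bulk culture: fewer cells of a type and less RNA per cell cannot be told apart. The keratinocyte identity in the labels was checked with 12 keratinocyte markers, all of which were present, with summed levels of 9240 to 9700 CPM (counts scaled to the library total with TMM factors) at 41C and 8190 to 8770 CPM at 37C. The summed markers of fibroblasts (15.6 to 17.9 CPM at 41C, 14.1 to 16.7 CPM at 37C), melanocytes (1.69 to 2.95 and 1.88 to 2.58 CPM), leukocytes (14.1 to 17.3 and 14.6 to 18.6 CPM) and endothelium (18.6 to 22.4 and 21.0 to 30.4 CPM) were far lower, and 3 of 5 melanocyte and 1 of 6 fibroblast markers were at 0 or had no row.

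Per unit of gene length the mRNAs spanned a wide range of levels. The median over the 76 was 838.5 FPKM (the authors' level per kilobase of gene length, scaled to the library total), and 48 of them were among the 100 highest genes by FPKM. The highest was RPS2, which lines the mRNA entry channel of the small subunit, at 3787 ± 169 FPKM at 41C and 4029 ± 256 FPKM at 37C (SD, n = 3 each). RPL7A of the large subunit followed at 3628 ± 140 FPKM at 41C and 3809 ± 124 FPKM at 37C. Both genes were measured in the same libraries, and their difference was not tested. RPL12, of the base of the P stalk, averaged 3127 ± 207 FPKM at 41C and 3290 ± 150 FPKM at 37C, and RPS18 averaged 2750 ± 68 FPKM at 41C and 3035 ± 95 FPKM at 37C. For 55 of the 76, the mean FPKM lay within 3 times of the median in either direction.

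The 3 lowest mRNAs on the FPKM scale were RPS10, RPL17 and RPS29. RPS10, a protein of the small subunit's head, averaged 6.26 ± 0.20 FPKM at 41C and 6.78 ± 0.15 FPKM at 37C. RPL17, at the rim of the nascent peptide's exit tunnel, averaged 13.9 ± 1.7 FPKM at 41C and 14.8 ± 0.48 FPKM at 37C, and was lowest in 41C replicate 1. In GENCODE 29, 39.4% of the exon bases of RPS10 are shared on the same strand with the readthrough gene RPS10-NUDT3, and 24.8% of those of RPL17 with RPL17-C18orf32. The symbol just below the rule's minimum, RPL36A, had 12, 10 and 10 counts at 41C and 13, 25 and 8 counts at 37C and shares 8.4% with RPL36A-HNRNPH2, while RPS10, just above it, had 104, 107 and 107 counts at 41C and 111, 107 and 112 counts at 37C. How reads in shared exons were counted was not given in the sources used here. Its part in these low values was not tested. RPS29 averaged 24.9 ± 0.85 FPKM at 41C and 28.3 ± 1.3 FPKM at 37C. The length behind its FPKM was 7472 bases. In GENCODE 29 its annotated exons cover 9845 bases, and its principal transcripts have a median length of 486.5 bases. Per kilobase of the principal transcript its level was 409 CPM, rank 63 of 76, and ranks on the 2 scales had a Spearman correlation of 0.84 over the 76 genes, which share the same counts.

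**Figure D1:**
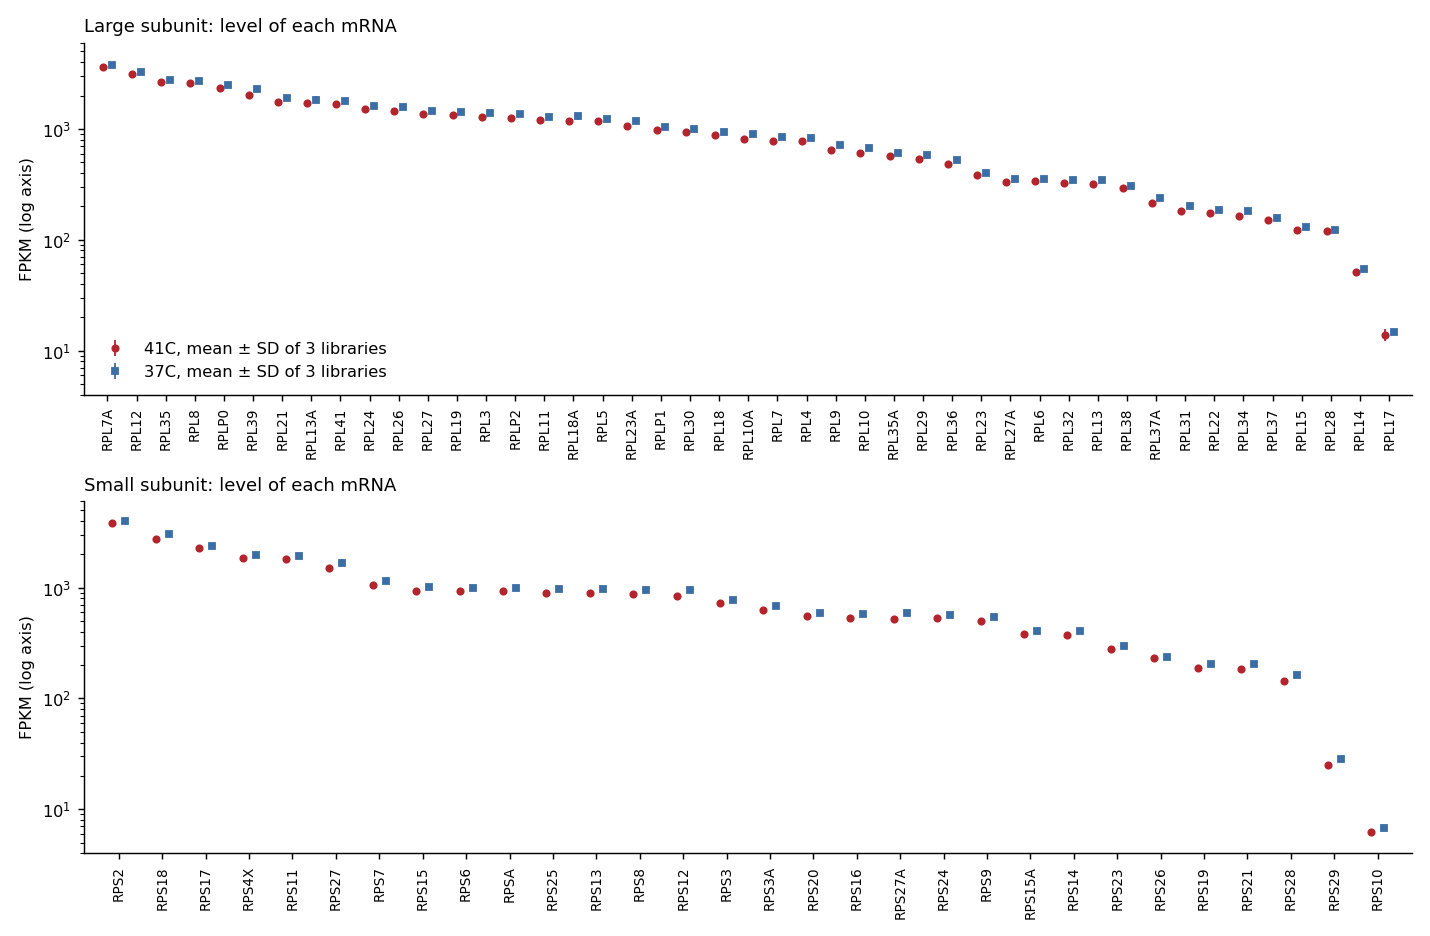
Mean FPKM (log axis) of 75 of the 76 ribosomal protein mRNAs, large subunit above and small subunit below, ordered by level, with circles for 41C and squares for 37C and bars for the SD of 3 libraries. RPS2 and RPL7A head the 2 subunits, and RPL17, RPS29 and RPS10 are the 3 lowest.

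No ribosomal protein mRNA passed the test between 41C and 37C, while all 76 had a negative log2 change. The edgeR quasi-likelihood test with Benjamini-Hochberg adjustment over 12056 genes called 0 of the 76 at an adjusted p under 0.05, and it called 0.265% of all tested genes lower and 0.821% higher. DESeq2, which called 1.58% of all tested genes, and limma-voom, which called 1.02%, also called 0 of the 76. At an unadjusted p under 0.05, edgeR counted 28 of the 76 lower, DESeq2 24 and limma-voom 28, against 6.12% (edgeR), 4.32% (DESeq2) and 6.05% (limma-voom) of all tested genes lower. A negative log2 change was found for 49.1% of all tested genes in the edgeR fit. The median log2 change was -0.083 over the 76 mRNAs, a ratio of 0.944, and 0.0023 over all tested genes, and the interquartile range of the 76 lay between -0.108 and -0.066. The SD of the 76 changes, 0.034, was smaller than the median SE of a single one, 0.047. CPM values of the groups did not overlap for 33 of the 76, all lower at 41C, against 8.84% of all tested genes lower. The labels do not say that the libraries came from separate cultures, so the p-values reflect just the spread among these 6 libraries, and that spread may be technical. With 3 libraries against 3, an exact two-sided permutation test of 1 gene cannot go below 0.1.

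**Figure D2:**
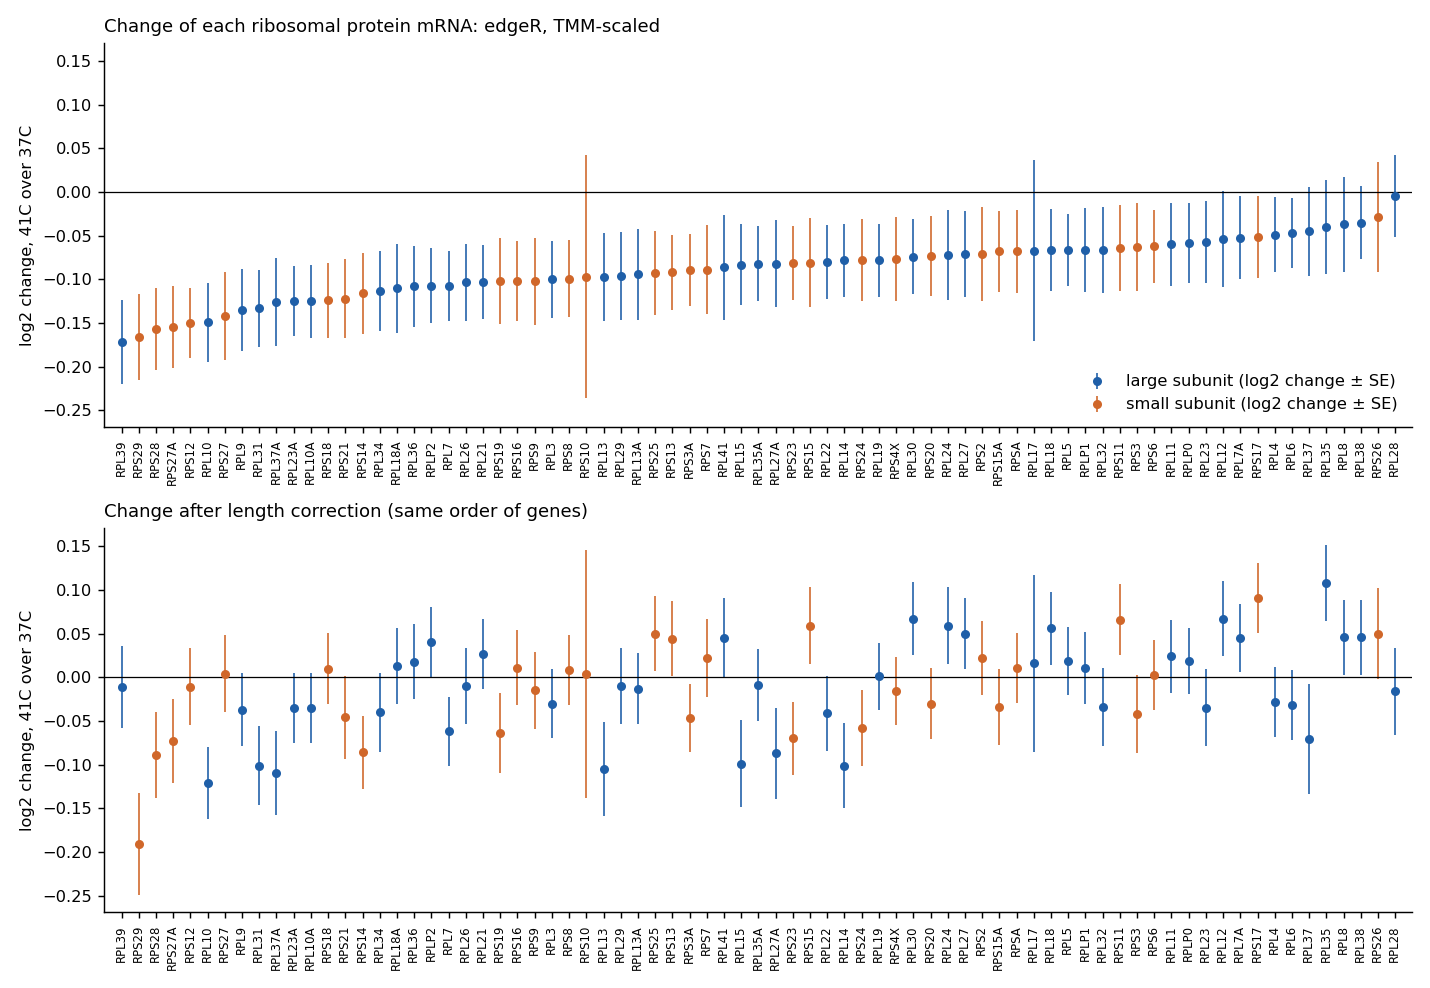
Log2 change (41C over 37C) ± SE of 75 of the 76 ribosomal protein mRNAs, ordered by the TMM-scaled value, with TMM scaling above and length correction below in the same order; blue is the large and orange the small subunit. Above, all 75 values lie below 0; below, they lie on both sides of it. Over all 76, the medians are -0.083 and -0.0098.

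The 76 mRNAs varied together from library to library, and 1 library at 37C stood out. The median deviation of the 76 from their own mean over the 6 libraries, on the log2 CPM scale, was -0.069, -0.056 and -0.0093 in 41C replicates 1, 2 and 3, and -0.021, 0.040 and 0.109 in 37C replicates 1, 2 and 3. 41C replicate 1 was the lowest of the 6 libraries for 43 of the 76 mRNAs, and 37C replicate 3 was the highest for 70. 37C replicate 1 lay below 41C replicate 3 in this measure, so the groups overlapped. Without 37C replicate 3, the median log2 change was -0.050, 73 of the 76 were negative, and 1 mRNA, RPS12, was called lower (log2 change -0.137, adjusted p = 0.0316, edgeR), against 2.65% of all tested genes. Without 37C replicate 1, the median was -0.118 and 5 mRNAs (RPL9, RPL10, RPL39, RPS27 and RPS29) were called lower, against 0.856% of all tested genes. Leaving out any of the 3 libraries at 41C or 37C replicate 2 gave 0 calls among the 76.

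**Figure D3:**
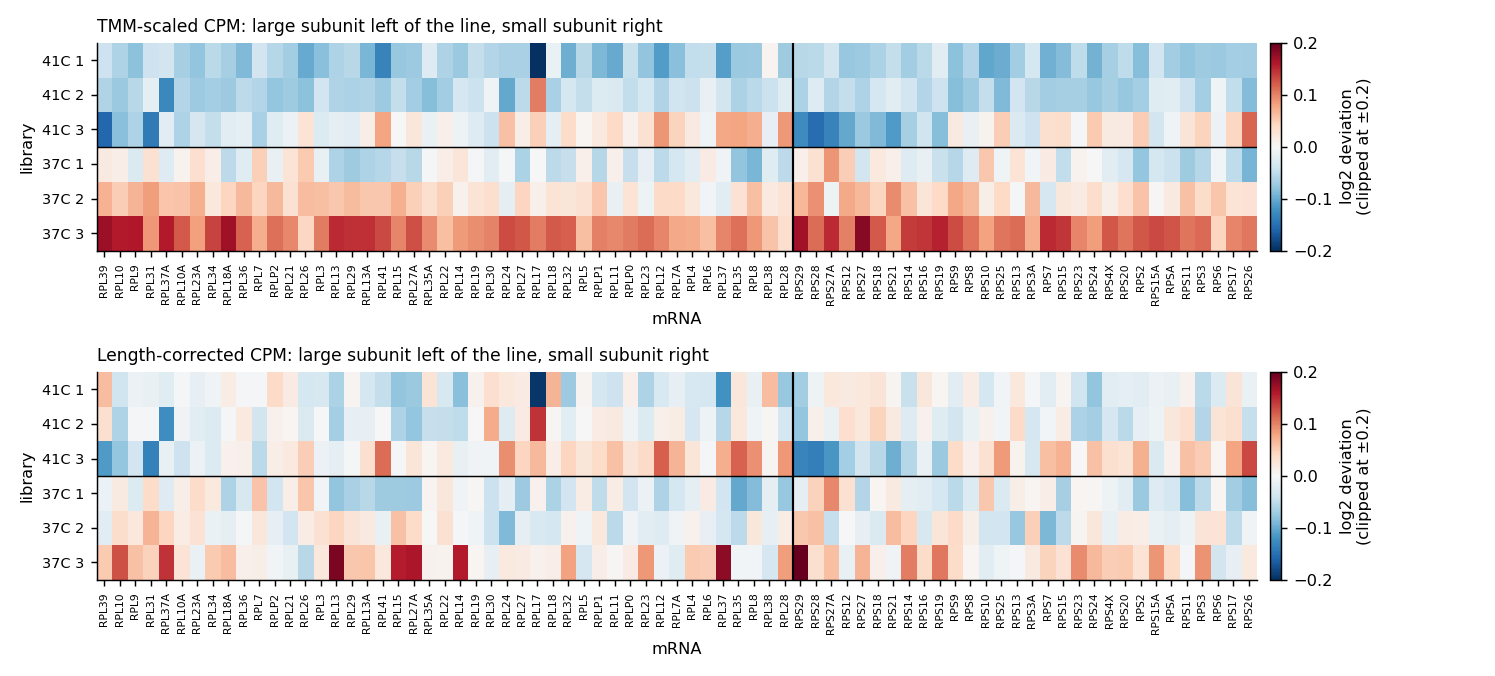
Log2 deviation of CPM from each mRNA's mean over the 6 libraries (columns, 75 of the 76 mRNAs; rows, libraries, 41C above 37C), with TMM scaling above and after length correction below; colours are clipped at ±0.2. Over all 76, 37C replicate 3 is the highest library for 70 mRNAs with TMM scaling and for 29 after length correction.

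Both subunits gave close values. Summed over the 45 large-subunit mRNAs, the level was 47718, 48264 and 50420 CPM in 41C replicates 1, 2 and 3, against 49247, 51470 and 53853 CPM in 37C replicates 1, 2 and 3. Summed over the 31 small-subunit mRNAs, it was 27693, 27972 and 29016 CPM at 41C, against 28549, 29846 and 31473 CPM at 37C. The groups overlapped for both subunits, and the mean at 41C was 0.947 (large) and 0.942 (small) of the mean at 37C. The ratio of the large to the small sum was 1.723, 1.725 and 1.738 at 41C and 1.725, 1.725 and 1.711 at 37C, which also overlapped. The median log2 change was -0.080 over the large-subunit mRNAs and -0.092 over the small-subunit mRNAs, a difference of 0.013 that was given no test.

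**Figure D4:**
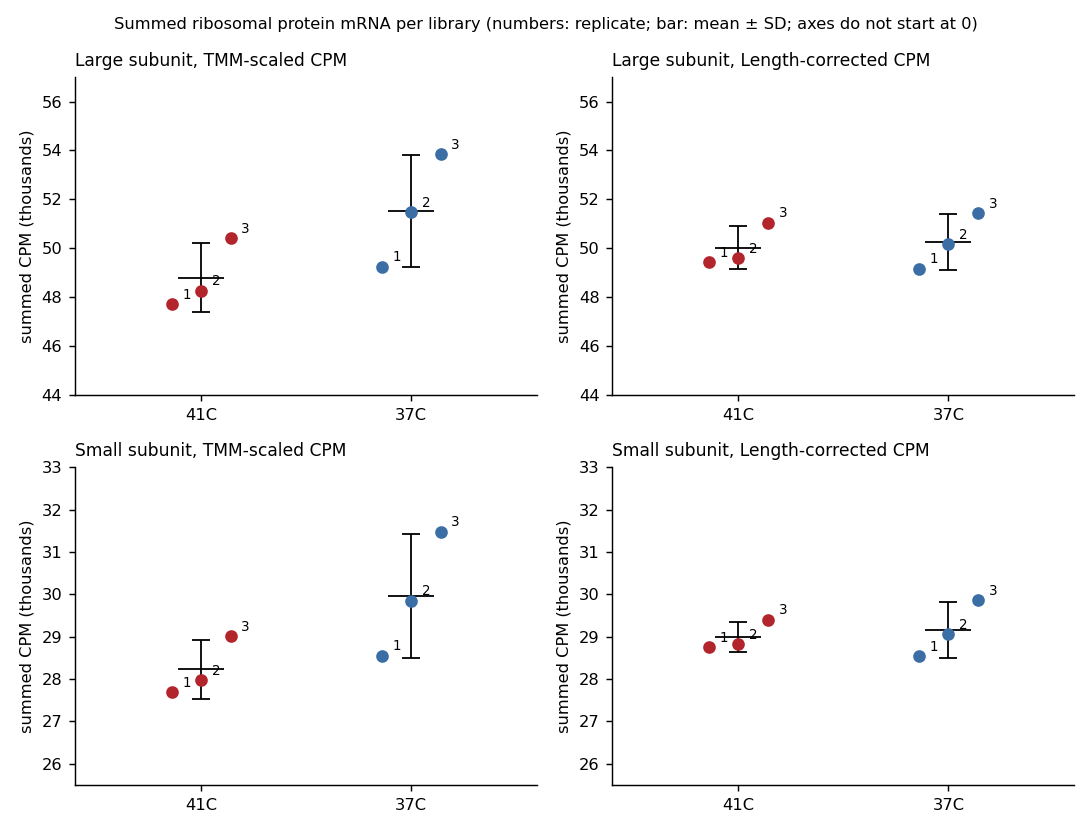
Summed CPM of the large-subunit mRNAs (above) and the small-subunit mRNAs (below) in each library, 41C left of 37C, with TMM scaling on the left and after length correction on the right; bars are mean ± SD of 3 libraries and the axes do not start at 0. The groups overlap in all 4 panels, and the length-corrected means lie within 1 SD of each other.

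The libraries also carried trends on gene length, and ribosomal protein genes are short. The authors' gene length had a median of 1105 bases over the 76 and 4038 bases over the tested genes, and 52 of the 76 were within the shortest of 10 equal-sized length bins of the tested genes. Over the tested genes other than the 76, the median log2 change climbed steadily with length. It was -0.062 in the shortest bin (up to 1551 bases) and 0.057 in the longest (9522 bases and over). In the shortest bin, the median was -0.091 over the 52 ribosomal protein mRNAs and -0.062 over the other genes, of which 74.0% were negative. The trend differed between libraries of 1 group: the median log2 CPM deviation of the shortest bin was -0.043, -0.041 and -0.0057 in 41C replicates 1, 2 and 3 and -0.016, 0.022 and 0.094 in 37C replicates 1, 2 and 3. In the longest bin it was 0.038, 0.044 and 0.018 at 41C and 0.033, 0.0024 and -0.097 at 37C. Over the 12056 genes of a library, the Spearman correlation of deviation on length was 0.214, 0.226 and 0.053 in 41C replicates 1, 2 and 3 and 0.134, -0.037 and -0.427 in 37C replicates 1, 2 and 3. 37C replicate 3 thus had the steepest trend, and it ran opposite to that of 41C replicates 1 and 2.

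**Figure D5:**
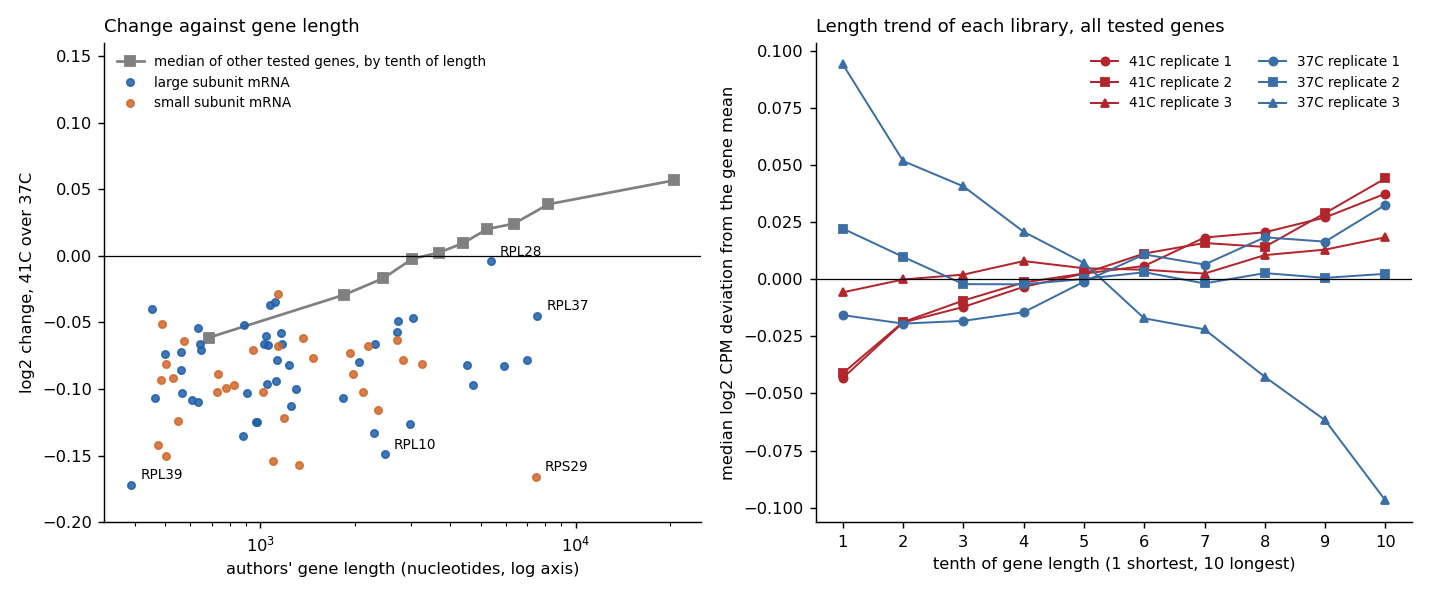
Left, log2 change of 75 of the 76 ribosomal protein mRNAs against the authors' gene length (log axis), with grey squares for the median of the other tested genes in each of 10 length bins. Right, median log2 CPM deviation of all tested genes by length bin in each library. The grey medians climb from -0.062 to 0.057, while ribosomal protein genes with a long authors' length, such as RPL37 and RPS29, stay negative. The principal transcripts of RPS29 are far shorter, with a median of 486.5 bases. On the right, 37C replicate 3 has the steepest trend.

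When each library's trend on the authors' gene length was removed with a spline over all tested genes, the 76 mRNAs as a set centred near 0. The median log2 change over the 76 became -0.0098, a ratio of 0.993, with 40 of 76 negative, beside 0.012 and 45.4% negative over all tested genes. This differed by length. The 52 in the shortest bin had a corrected median of 0.012, beside 0.025 for the other genes there. In bins 2, 3 and 4 the medians were -0.047 (5 mRNAs), -0.038 (8) and -0.064 (4), beside 0.015, 0.010 and 0.013 for other genes. In the longer bins that held any of the 76, the medians ran from -0.131 to -0.016. edgeR called 0 of the 76 in this fit, against 0.299% of all tested genes lower and 0.647% higher. At an unadjusted p under 0.05 it counted 4 of the 76 lower and 2 higher, against 4.86% lower and 7.97% higher of all tested genes. Groups of length-corrected CPM did not overlap for 10 mRNAs lower and 7 higher at 41C, against 7.22% lower and 10.8% higher of all tested genes. Summed length-corrected levels of all 76 were 78177, 78411 and 80443 CPM at 41C, against 77705, 79212 and 81296 CPM at 37C. The large-subunit median was -0.0099 and the small-subunit median 0.0022, and the ratio of the sums was 1.719, 1.721 and 1.736 at 41C and 1.723, 1.726 and 1.723 at 37C. With the trend estimated from the other genes alone, the median over the 76 was -0.0073. With a straight line in place of the spline, it was -0.019 and 50 of 76 were negative. A length-correlated difference shared by the 76 and an equal trend in the libraries cannot be told apart, since most of the 76 are short.

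The choice of gene length moved the corrected values of long and short ribosomal protein genes alike. 7 of the 76 exceeded 4000 bases in the authors' lengths: RPL13, RPL14, RPL15, RPL27A, RPL28, RPL37 and RPS29. Their median log2 change was -0.082, and -0.099 after the correction, while that of the other 69 was -0.086 and 0.0022 after it. With the principal transcript's length in place of the authors' length, the 7 had a median of -0.076 and the other 69 a median of 0.011, and over all 76 the median was 0.0076 with 30 negative, beside 45.7% of all tested genes. Among the 7, the corrected log2 change of RPL15 was -0.003 on the principal transcript and -0.099 on the authors' length, while that of RPL14 was -0.093 and -0.101. Shorter genes moved too: RPS21 had 0.061 on the principal transcript and -0.046 on the authors' length, and RPS24 had 0.046 and -0.058 (both chosen after their values were seen). Among the 76, the log2 change had a Spearman correlation of 0.14 with the authors' length before the correction and -0.79 after it. The correction takes out a function of that same length, so the second value follows in part from the correction itself. Both values describe genes that share libraries. RPS29, a zinc-binding protein of the small subunit's head, had 191, 190 and 182 CPM at 41C, against 200, 208 and 223 CPM at 37C. The groups did not overlap, and its log2 change was -0.17 ± 0.05 (SE; adjusted p = 0.119, edgeR). It was -0.19 ± 0.06 after correction on the authors' length of 7472 bases and -0.015 after correction on the principal transcript. Over 28 alternatives its adjusted p ran from 0.0178 to 0.966.

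The mRNAs with the lowest log2 changes came from both subunits. RPL39, a very short protein that lines the exit tunnel, is encoded at X:119786504-119791643 (GENCODE 29, GRCh38, minus strand). It had 818, 807 and 755 CPM at 41C, against 852, 883 and 947 CPM at 37C. The groups did not overlap, and the log2 change of -0.17 ± 0.05 had an adjusted p of 0.0984 in edgeR, with 0.0281 to 0.988 over 28 alternatives. RPL39 is also the shortest of the 76, at 390 bases, and after length correction its values were 879, 861 and 778 CPM at 41C, against 835, 829 and 873 CPM at 37C, which overlap, with a log2 change of -0.011 ± 0.047. RPS12 of the small subunit had 424, 432 and 416 CPM at 41C, against 462, 471 and 479 CPM at 37C. Its log2 change was -0.15 ± 0.04 (adjusted p = 0.0893, edgeR, the lowest of the 76; 0.0158 to 0.984 over 28 alternatives) and -0.011 ± 0.044 after length correction. RPS28, which lines the mRNA exit channel, had 197, 201 and 184 CPM at 41C, against 209, 218 and 221 CPM at 37C. Its groups did not overlap before or after the correction, with log2 changes of -0.16 ± 0.05 and -0.089 ± 0.049.

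RPL10, with an authors' length of 2483 bases, kept most of its difference after the correction, which moved its log2 change by just 0.027. This large-subunit protein, which joins the subunit late in its assembly, is encoded at X:154389955-154409168 (GENCODE 29, GRCh38, plus strand). It had 1512, 1499 and 1489 CPM at 41C, against 1593, 1633 and 1763 CPM at 37C. All 3 libraries at 41C lay below all 3 at 37C, with a log2 change of -0.15 ± 0.05 (adjusted p = 0.132, edgeR). After length correction the values were 1535, 1512 and 1496 CPM at 41C, against 1599, 1618 and 1724 CPM at 37C, with a log2 change of -0.12 ± 0.04 (adjusted p = 0.186). Across 28 alternatives the log2 change ran from -0.185 to -0.086 and the adjusted p from 0.0193 to 0.490, with 3 alternatives past the threshold. A small move was not particular to RPL10: RPL31, of 2296 bases, had -0.133 before and -0.101 after the correction (chosen after its values were seen). GENCODE 29 names 19 pseudogenes of RPL10, and reads shared between the gene and such copies make its counts uncertain.

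RPL28 had the log2 change closest to 0, and RPL35 the highest one after length correction. RPL28, a large-subunit protein with no named pseudogene, had 618, 638 and 689 CPM at 41C, against 626, 661 and 664 CPM at 37C. The groups overlapped, and the log2 change was -0.0040 ± 0.047. RPL35, which sits at the exit tunnel's rim, had 1166, 1175 and 1297 CPM at 41C, against 1163, 1253 and 1325 CPM at 37C, which overlapped. Its log2 change was -0.040 ± 0.054. The correction moved this 452-base gene more than any other but RPL39: the corrected values were 1247, 1246 and 1333 CPM at 41C, against 1144, 1184 and 1223 CPM at 37C. Those groups did not overlap, and the corrected log2 change was 0.11 ± 0.04 (adjusted p = 0.287, edgeR). Without 37C replicate 3 the corrected change was 0.134 with an adjusted p of 0.0261, the only alternative of 28 in which RPL35 was called, over a range of 0.0261 to 0.973, against 6.03% of all tested genes called higher in that fit. RPS26, at the mRNA exit channel, had a log2 change of -0.029 ± 0.063, RPL38, which in mice is needed for translation of some Hox mRNAs, one of -0.035 ± 0.042, RPL8 one of -0.037 ± 0.054, and RPL37 one of -0.045 ± 0.051. Their CPM overlapped between the groups. After length correction RPS26, RPL38 and RPL8 turned positive, at 0.050, 0.046 and 0.046, and RPL37 had -0.071.

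The P stalk, where GTPase translation factors dock on the large subunit, is built of RPLP0, RPLP1 and RPLP2. RPLP0 had 2737, 2730 and 2840 CPM at 41C, against 2736, 2878 and 3035 CPM at 37C. RPLP1 had 1113, 1162 and 1200 CPM at 41C, against 1138, 1231 and 1270 CPM at 37C. Both overlapped between the groups, with log2 changes of -0.058 ± 0.046 and -0.066 ± 0.048, which turned to 0.019 ± 0.038 and 0.011 ± 0.041 after length correction. RPLP2 had 580, 572 and 593 CPM at 41C, against 597, 631 and 651 CPM at 37C. It was lower in every library at 41C, with a log2 change of -0.107 ± 0.043 (adjusted p = 0.290, edgeR), whereas after length correction the 3 libraries at 41C were above those at 37C (620, 607 and 609 CPM at 41C, 588, 597 and 601 CPM at 37C; log2 change 0.040 ± 0.041). RPL5 and RPL11 form a particle with the 5S ribosomal RNA that also restrains MDM2, the ligase of p53. RPL5 had 1191, 1197 and 1241 CPM at 41C, against 1246, 1264 and 1290 CPM at 37C, which did not overlap. RPL11 had 1211, 1272 and 1334 CPM at 41C, against 1307, 1285 and 1387 CPM at 37C, which did. Their log2 changes were -0.066 ± 0.041 and -0.060 ± 0.047, and 0.019 ± 0.039 and 0.024 ± 0.042 after the correction.

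Around the exit tunnel, 8 of 8 listed mRNAs (RPL4, RPL17, RPL19, RPL23A, RPL26, RPL31, RPL35 and RPL39) were negative with a median log2 change of -0.091, and 5 of 8 were negative with a median of -0.010 after length correction. RPSA, which is also known as the laminin receptor precursor, had 1041, 1077 and 1086 CPM at 41C, against 1061, 1106 and 1192 CPM at 37C. RPS6, the substrate of the S6 kinases, had 1249, 1308 and 1305 CPM at 41C, against 1310, 1367 and 1355 CPM at 37C, lower in every library at 41C by a small margin. Its log2 change was -0.062 ± 0.042, and 0.003 ± 0.040 after length correction. RPS19, the gene most often mutated in Diamond-Blackfan anaemia, had 406, 401 and 389 CPM at 41C, against 400, 424 and 459 CPM at 37C. RPS4X had 2665, 2666 and 2827 CPM at 41C, against 2751, 2813 and 3042 CPM at 37C. RPS19 and RPS4X overlapped between the groups, with log2 changes of -0.102 ± 0.049 and -0.077 ± 0.048, and -0.064 ± 0.046 and -0.016 ± 0.039 after the correction.

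RPL13A, which is often used as a reference gene in quantitative PCR, had 1855, 1896 and 1994 CPM at 41C, against 1893, 2052 and 2187 CPM at 37C, with a log2 change of -0.094 ± 0.052, and -0.013 ± 0.041 after length correction. RPL41, which encodes one of the shortest human proteins, had 883, 921 and 1023 CPM at 41C, against 931, 1006 and 1062 CPM at 37C. Both overlapped between the groups. RPS18, of the small subunit's head, had 1518, 1550 and 1491 CPM at 41C, against 1608, 1634 and 1726 CPM at 37C, which did not overlap. Its log2 change was -0.124 ± 0.043 and 0.0098 ± 0.041 after length correction. RPS27A is made as a fusion of ubiquitin and a small-subunit protein. It had 595, 586 and 556 CPM at 41C, against 649, 606 and 677 CPM at 37C, with no overlap and a log2 change of -0.15 ± 0.05 (adjusted p = 0.140, edgeR; 0.0633 to 0.882 over 28 alternatives). After length correction it had 619, 605 and 563 CPM at 41C, against 652, 591 and 636 CPM at 37C, which overlap, with a log2 change of -0.073 ± 0.048. FAU, a fusion with a ubiquitin-like protein, lies outside the symbol rule and had a log2 change of -0.093 ± 0.044, which turned to 0.046 ± 0.044 after length correction.

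What the 76 genes share beyond the symbol was also set beside the log2 change. They lie on 21 chromosomes, 12 of them on chromosome 19. In GENCODE 29, 28 hold a snoRNA gene inside their bounds, and the median log2 change was -0.078 for these and -0.084 for the other 48 (-0.011 and -0.0095 after length correction). Of the 76, 75 carry the name of at least 1 annotated pseudogene and 1114 pseudogenes are named after them in all, 91 of them for RPL23A and 74 for RPSA. The 16 genes with 20 or more named pseudogenes had a median of -0.074 and the 19 with 3 or fewer one of -0.092, while after length correction the order turned, with -0.0023 and 0.024. Genes with the pyrimidine run at the start had a median of -0.091 (54 genes) and those without it one of -0.077 (7 genes), or -0.010 and -0.030 after the correction. Across the 76, the log2 change had a Spearman correlation of 0.35 with the mean CPM and of -0.082 with GC content, over genes that share the same 6 libraries. 35 of the genes overlap a gene on the opposite strand, and reads of such partners may have been counted together, because the strand setting of the counting was not given in the sources used here.

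Other mRNAs of translation did not all follow the same course. Of 17 other mRNAs known for a TOP start, 12 were negative with a median log2 change of -0.060 (0.0023 after length correction). Of these, 0 passed the edgeR test and 1 had an unadjusted p under 0.05. Over all tested genes, 49.1% were negative (45.4% after length correction). At an unadjusted p under 0.05, edgeR counted 6.12% of all tested genes lower and 7.58% higher. EEF1A1, the elongation factor that brings aminoacyl-tRNA to the ribosome, had 8832, 8770 and 8724 CPM at 41C, against 9135, 9402 and 9689 CPM at 37C. Its groups did not overlap, and its log2 change was -0.10 ± 0.04 and stayed at -0.093 ± 0.038 after the correction (adjusted p = 0.322 and 0.302, edgeR). EEF2, the translocation factor, had a log2 change of 0.012 ± 0.044, TPT1 one of -0.081 ± 0.046 and RACK1, a scaffold on the small subunit, one of -0.071 ± 0.045. After length correction these were 0.025, -0.088 and 0.008. Another list held 34 translation factors and regulators, with EIF4EBP1, EEF2K, ETF1 and ABCE1 among them and without EEF1A1 or EEF2. In it, 16 were negative with a median of 0.0085 (9 negative and 0.044 after length correction). Among the 34, 1 passed the test, against 0.821% of all tested genes higher. That was EIF4G1, the scaffold of the cap-binding complex, which rose at 41C, to 1208, 1198 and 1282 CPM, against 1038, 999 and 1053 CPM at 37C (log2 change 0.26 ± 0.04, adjusted p = 0.00766, edgeR; 0.0124 after length correction). It was not called when 41C replicate 2 (adjusted p = 0.0894), 41C replicate 3 (0.0599) or 37C replicate 2 (0.133) was left out, within a range of 3.13e-06 to 0.169 over 28 alternatives.

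Genes for building ribosomes mostly had positive values. Of 51 ribosome assembly factors, 42 were positive and 9 negative, with a median log2 change of 0.041 (0.062 after length correction). Of these, 0 passed the edgeR test and 5 had an unadjusted p under 0.05. Over all tested genes, for comparison with these lists, 50.9% were positive (54.6% after length correction). At an unadjusted p under 0.05, edgeR counted 6.12% of all tested genes lower and 7.58% higher. Of 14 tested genes of RNA polymerase I and its factors, which make the large ribosomal RNA, 9 were negative with a median of -0.031. After length correction 7 were negative with a median of 0.00091. Against 0.821% of all tested genes called higher, 1 passed the test and rose: POLR1A, the largest subunit of the polymerase. It had 140, 134 and 139 CPM at 41C, against 117, 112 and 121 CPM at 37C (log2 change 0.24 ± 0.05, adjusted p = 0.0290, edgeR), with an adjusted p of 0.138 after length correction and 0.000221 to 0.600 over 28 alternatives, 11 of them past the threshold. POLR1A was not called when 41C replicate 1, 2 or 3 (adjusted p = 0.182, 0.161 and 0.121) or 37C replicate 2 (0.284) was left out. Of 9 chaperones of single ribosomal proteins, 5 were negative with a median of -0.021 (-0.000465 after the correction). Of 20 regulators of ribosomal protein synthesis, 18 were positive with a median of 0.079 (0.059 after the correction), and 0 passed the edgeR test while 5 had an unadjusted p under 0.05. Among these, MYC, a transcriptional activator of ribosome genes, had 250, 248 and 260 CPM at 41C, against 232, 223 and 248 CPM at 37C, with a log2 change of 0.109 ± 0.048 (adjusted p = 0.325, edgeR). MYC was called without 37C replicate 3 (log2 change 0.153, adjusted p = 0.0238, edgeR), against 3.97% of all tested genes called higher in that fit. Its adjusted p ran from 0.0115 to 0.852 over 28 alternatives. The regulators had a median authors' length of 6232 bases and the assembly factors one of 2844 bases.

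Mitochondrial ribosomal proteins, which are encoded in the nucleus and serve the separate ribosomes of mitochondria, are likewise short genes, with a median authors' length of 1540 bases. Of 77 tested, 62 were negative with a median log2 change of -0.037, and 30 were negative with a median of 0.014 after length correction. Over all tested genes, 49.1% were negative before and 45.4% after the correction. edgeR called 0 of the 77, and 2 had an unadjusted p under 0.05, against 6.12% lower and 7.58% higher of all tested genes. Paralogs of cytosolic ribosomal proteins outside the symbol rule were all negative (6 of 6 tested, median -0.078), and 3 of 6 were negative after the correction. RPL22L1, chosen after its values were seen, had the lowest of these, at 99.2, 94.8 and 90.6 CPM at 41C, against 105, 105 and 112 CPM at 37C, with a log2 change of -0.18 ± 0.05 (adjusted p = 0.142, edgeR) and -0.13 ± 0.06 after length correction. No difference between these lists and the cytosolic ribosomal proteins was tested.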

How the data were processed

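The deposited table of raw counts gives reads per gene symbol as whole numbers, and the deposited FPKM table was derived by the authors from those counts and 1 gene length per symbol (within 0.01% for 100% of values), which gave the lengths. Per the submitters' processing notes, Trimmomatic 0.36, HISAT2 and GRCh38.p13 were used. Counter, annotation, strand setting and the delay between the last exposure and lysis were not given in the sources used here. Per the labels' protocols, a mirVana kit was used for RNA and a stranded TruSeq mRNA kit for libraries.

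Counts of 41C against 37C were fitted with edgeR 4.0.16 in R 4.3.3 (filterByExpr, 12056 genes; TMM; robust quasi-likelihood, two-sided; Benjamini-Hochberg over all tested genes at 0.05). The length correction fitted, in each library, a natural spline with 4 degrees of freedom of the log2 CPM deviation on log2 gene length, and used it as an offset. The length behind a principal transcript came from GENCODE 29 (APPRIS principal), matched by symbol for 97.9% of tested genes. That form of the correction was added after the data had been seen. Alternatives were DESeq2 1.42.0, limma-voom (limma 3.58.1), DESeq2 and upper-quartile factors, no filter, a minimum CPM of 1 in at least 3 libraries, blocking by replicate number, leaving out each library, limma on log2(FPKM + 1) and log2(FPKM + 0.1), other forms of the length correction, a GC correction and a minimum of 500 counts. Fits were also run on simulated data with no length trend or with one shared by the 41C libraries. Trends that differ within a group, as seen here, were not simulated. Start-site sequences are from RefSeq, where 61 of the 76 genes matched by symbol.

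1 of the 76 mRNAs counts in the totals but is not reported singly here or drawn. Members and gene lists were chosen with earlier results of these data known, so counts and medians over lists are descriptions. Named mRNAs were the 6 highest and 6 lowest log2 changes, the 4 highest and 3 lowest FPKM, the 2 moved most each way by the length correction, any past the threshold, and a fixed set of well-known members. Among the other lists, rows were absent for all 12 listed snoRNA host transcripts, which were not analysed here.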

Additional observations from a re-analysis of the deposited data

How the results depend on the processing

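The count of 0 calls among the 76 mRNAs was the same with DESeq2, limma-voom, both other sets of scaling factors, a CPM filter of 1, both FPKM scales and the length corrections on all 6 libraries. It was 1 lower with no filter (RPL39), against 0.65% of all tested genes lower, 4 lower with the GC correction (RPL10, RPL23A, RPL39 and RPS12), against 0.979%, and 0 to 5 lower when a library was left out. With length correction and a library left out it was 0 to 1 lower (1 without 37C replicate 1, against 0.527% of all tested genes) and 0 to 1 higher (RPL35 without 37C replicate 3, at a log2 change of 0.134, against 6.03%). With no length correction and a library left out, the median log2 change ran from -0.118 to -0.050 over the 76, from -0.114 to -0.044 over the large subunit and from -0.125 to -0.055 over the small subunit, and the large minus the small median from 0.0070 to 0.0117. RPL35 ran from -0.0947 to 0.134 over all settings with a library left out. The length corrections brought the median over the 76 to -0.0098 (spline), -0.0073 (fitted without the 76), -0.019 (straight line), -0.0095 (with the replicate block), 0.0076 (principal transcript) and 0.0098 (principal transcript, fitted without the 76), and to -0.015 to 0.0068 with a library left out. For the large subunit the same settings gave -0.0099, -0.0090, -0.020, -0.0096, 0.0080 and 0.0081, and -0.017 to 0.0096 with a library left out. For the small subunit they gave 0.0022, 0.0032, -0.019, 0.0021, 0.0071 and 0.0104, and -0.011 to 0.0055 with a library left out. The large minus the small median was 0.013 with TMM scaling and -0.012, -0.012, -0.00052, -0.012, 0.00088 and -0.0023 under the same corrections, and -0.0056 to 0.0053 with a library left out. Of the 38 named genes, 20 changed the sign of their log2 change under the length correction and 0 did under DESeq2 or limma-voom.

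The replicate numbers of the titles were checked as a block. Deviations of same-numbered libraries correlated at 0.108, -0.0122 and 0.104, and 4 of 6 libraries correlated best with their own number. These values do not decide whether same-numbered libraries share more than a number. With the replicate block, 10 of the 76 were called lower (RPL7, RPL9, RPL10, RPL10A, RPL23A, RPL31, RPS12, RPS18, RPS28 and RPS29), against 1.17% of all tested genes lower, and with the block and the length correction 0 were.

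Depth limits RPS10 and RPL17, whose SEs of 0.139 and 0.104 exceeded the median SE of 0.047. A p above the threshold does not show that an mRNA did not differ.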
